A study of Drosophila melanogaster with 20 samples.

Results

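The genes sister of tout-velu (sotv) and brother of tout-velu (botv) encode exostosin-family glycosyltransferases of Drosophila melanogaster. They were taken as all spots whose single gene symbol is sotv or botv in the annotation of the array, which gave 4 of 16896 spots and 2 of 2377 annotated genes. The gene sotv (gene identifier 3772101, CG8433) was printed as spots 2221 and 2222, and botv (gene identifier 37198, CG15110) as spots 5377 and 5378. Both lie on chromosome arm 2R in the assembly GCF_000001215.4, sotv at 16145904 to 16148719 and botv at 19129589 to 19133706.

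Heparan sulfate is a long, sulfated sugar chain that is built in the Golgi on proteoglycan core proteins and displayed at the cell surface and in the extracellular matrix. Chain growth in flies is carried out by the proteins of tout-velu (ttv) and sotv, which act together as a polymerase and are related to mammalian EXT1 and EXT2, while Botv, related to mammalian EXTL3, adds the first N-acetylglucosamine to the linker and can extend the chain. In developing fly tissues these chains are known for carrying Hedgehog, Wingless and Decapentaplegic between cells. The gene ttv was not analysed here.

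The flies were adult Oregon-R females, 4 to 10 days old, sprayed with 2 mL of solution in 99% ethanol and sampled after 6 h, with RNA from about 240 flies per extract. The groups were the combination of 0.1 mg/mL black pepper (Piper nigrum) seed extract with 0.004 mg/mL pyrethrin, pyrethrin alone at 0.04 mg/mL, the pepper extract alone at 0.2 mg/mL, and the ethanol carrier alone as the control on every array. Each treatment had 4 treated extracts. Those of the combination and the pepper extract were each hybridised on 2 arrays with the dyes exchanged, and those of pyrethrin on 1 array each with the treated RNA in Cy3, so that 20 arrays were read. Pyrethrin replicates 1 and 2 shared control extract 3, and replicates 4 and 5 shared control extract 4. The combination and the pepper extract each used controls numbered 1 to 4, and whether a number means the same extract in different treatments is not clear from the labels; the fit treats them as separate. In whole flies, fewer cells of a type and less RNA per cell cannot be told apart, and a ratio holds no level, so tissue identity was not checked.

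Values are log2 ratios written as treated over ethanol. The labels do not say which channel is the numerator. After the mean array of each treatment and dye orientation was removed, the arrays of 1 extract correlated positively in 8 of 8 extracts, at a mean of 0.217. Other pairings averaged -0.0723, which the removal itself brings about when arrays of 1 extract correlate positively, so it is no separate baseline. An exact one-sided permutation test over 576 pairings gave p = 0.00174, which makes treated over ethanol the likely reading. Without that removal, 6 of the 8 correlations were negative (-0.202 to 0.269), so the reading is not settled. Read instead by channel, as Cy5 over Cy3, 5 of the 6 mean ratios of sotv and botv against ethanol change sign, and those values are given beside these means. The correlations between genes, the shares of features with all extracts on 1 side and the values of all other genes are given only as treated over ethanol. Arrays held 13953 to 16853 values, and neighbouring duplicate spots correlated at 0.172 to 0.728 within an array.

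The genes were picked from earlier results of the same arrays, sotv from the pepper extract against ethanol and from pyrethrin minus the pepper extract, and botv from the combination minus the pepper extract. Values in those comparisons, and in others that use the same extracts, are therefore descriptions. The pair left as tests are sotv after the combination and botv after pyrethrin. If the combination and the pepper extract share control extracts, sotv after the combination is not independent of that choice.

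The sotv log2 ratio in the combination extracts was 0.016 in replicate 2, 0.016 in replicate 4, 0.10 in replicate 5 and 0.32 in replicate 6. In the pyrethrin extracts it was -0.22 in replicate 1, -0.20 in replicate 2, -0.07 in replicate 4 and -0.06 in replicate 5. In the pepper extract replicates it was 0.54 in replicate 1, 0.18 in replicate 2, 0.38 in replicate 3 and 0.09 in replicate 4. All 4 combination extracts and all 4 pepper extracts thus lay above ethanol, with 2 of the combination extracts close to it. All 4 pyrethrin extracts lay below it after the dye correction of -0.09 taken from the other treatments, and 2 of 4 before it. The combination did not overlap with pyrethrin but overlapped with the pepper extract, and pyrethrin did not overlap with the pepper extract. Set side by side by control number, sotv was lower after the combination than after the pepper extract in 4 of 4, by -0.22, -0.16, -0.28 and -0.07 for controls 1 to 4. The gene was chosen for its values after the pepper extract, which favours such a count. Whether the numbers pair the extracts is not clear.

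The mean of sotv was 0.11 ± 0.15 after the combination, -0.14 ± 0.08 after pyrethrin and 0.30 ± 0.20 after the pepper extract (SD, n = 4 each). As folds over ethanol these are 1.08, 0.910 and 1.23. For sotv after the combination, limma gave 0.11 ± 0.09 (SE), a 95% interval of -0.09 to 0.32 and an adjusted p of 0.736, so a difference from ethanol was not shown, nor was its absence. An exact two-sided sign-flip test over the 4 extracts gave p = 0.125, the smallest that 4 extracts allow. The 95% intervals were -0.35 to 0.08 after pyrethrin and 0.10 to 0.50 after the pepper extract, where the choice of the gene used the value. The interval after pyrethrin leaves out the error of the dye correction. The block for its shared controls uses 1 correlation over all features, 0.0646. For sotv the 2 extracts of each control lay close together, so the interval may be too narrow. In a fit of the 20 arrays with a dye term, sotv after pyrethrin was -0.14 ± 0.19 (SE). Without replicate 6 of the combination, sotv was 0.044 after the combination, -0.044 after pyrethrin, whose dye correction uses that pair, and 0.088 for the combination minus pyrethrin. Without the dye correction sotv after pyrethrin was -0.042, and the second spot alone gave 0.0098 after the combination and 0.026 after pyrethrin. Read by channel, sotv stood at -0.26 after the combination, 0.25 after pyrethrin and 0.07 after the pepper extract.

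The botv log2 ratio in the combination extracts was 0.27 in replicate 2, 0.40 in replicate 4, 0.10 in replicate 5 and 0.28 in replicate 6. In the pyrethrin extracts it was -0.26 in replicate 1, -0.22 in replicate 2, -0.11 in replicate 4 and -0.26 in replicate 5. In the pepper extract replicates it was -0.11 in replicate 1, -0.04 in replicate 2, -0.05 in replicate 3 and -0.54 in replicate 4. Every combination extract lay above ethanol, and every pyrethrin and every pepper extract lay below it. The combination overlapped with neither of the single treatments, which overlapped with each other, and replicate 4 of the pepper extract stood far below its other replicates.

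The mean of botv was 0.26 ± 0.12 after the combination, -0.21 ± 0.07 after pyrethrin and -0.19 ± 0.24 after the pepper extract (SD, n = 4 each), which are folds of 1.20, 0.864 and 0.879 over ethanol. For botv after pyrethrin, limma gave -0.21 ± 0.10 (SE), a 95% interval of -0.43 to 0.01 and an adjusted p of 0.515, which did not pass. This SE and interval treat the dye correction as known and leave out its error. In a fit of the 20 arrays with a dye term, botv after pyrethrin was -0.21 ± 0.17 (SE). No sign-flip p is given, since these 4 extracts share 2 control extracts and 1 dye correction. The 95% intervals were 0.05 to 0.47 after the combination and -0.39 to 0.02 after the pepper extract. Without replicate 4 of the pepper extract its mean there was -0.07. Read by channel, botv stood at -0.23 after the combination, where it had a limma adjusted p of 0.0419, at 0.23 after pyrethrin and at 0.19 after the pepper extract. Under that reading 1918 of 11526 tested features passed for the combination. The choice of botv used the combination extracts, so this p is a description.

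**Figure D1:**
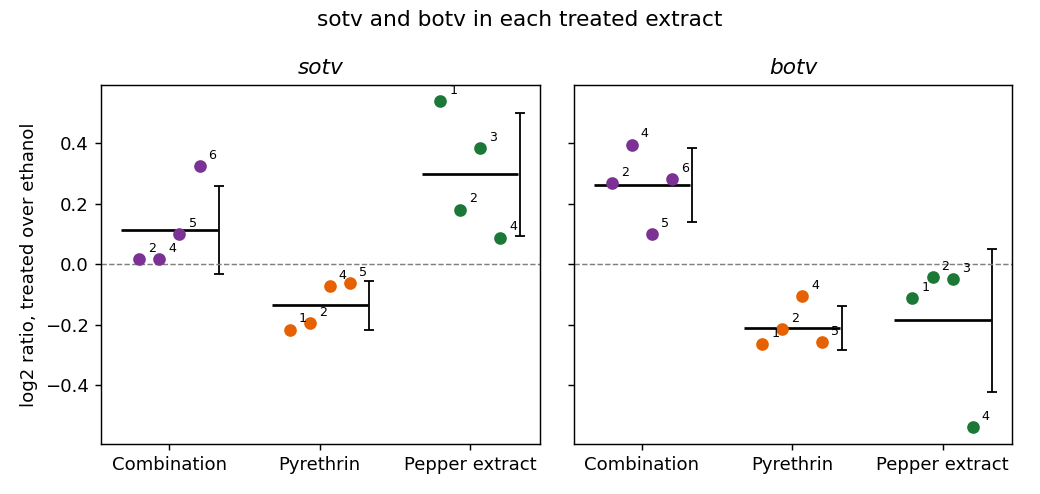
Log2 ratio of sotv (left) and botv (right), treated over ethanol, in each treated extract; points are extracts with their replicate numbers, black lines are means and bars are SDs of 4 extracts. The combination extracts are all above 0 and the pyrethrin extracts all below 0 for both genes, while the pepper extracts are above 0 for sotv and below 0 for botv.

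As background, 0% of the 11526 tested features passed a limma adjusted p of 0.05 for the combination, 0.0607% for pyrethrin and 0% for the pepper extract, and neither sotv nor botv was among them. At an unadjusted p under 0.05 in limma there were 1003 features for the combination, 1151 for pyrethrin and 377 for the pepper extract. Of the 10017 features measured in all 12 extracts, 8.11% had all 4 combination extracts above ethanol, 10.3% had all 4 pyrethrin extracts below it, 6.63% had all 4 pepper extracts above it and 6.33% had them all below. The opposite sides held 7.22% of features below for the combination and 9.31% above for pyrethrin, so that 15.3%, 19.6% and 13% had all 4 extracts on 1 side for the combination, pyrethrin and the pepper extract. A single treatment on 1 side was therefore common. Having it in all 3 treatments was seen in 0.579% of features, among them sotv and botv. The order above, above and below for the combination, the pepper extract and pyrethrin, as in sotv, was found in 0.0898%, and the order of botv, above only after the combination, in 0.0299%. Since the genes were chosen from these values, the shares describe them and support nothing.

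The treatments differ in dose, so they are set side by side and no interaction was tested. For botv the combination minus the pepper extract was 0.45 ± 0.14 (SE) and the combination minus pyrethrin 0.47 ± 0.14, while pyrethrin minus the pepper extract was -0.02 ± 0.14 with a 95% interval of -0.33 to 0.28. For sotv the combination lay 0.25 ± 0.14 (SE) from pyrethrin and -0.18 ± 0.13 from the pepper extract, and pyrethrin lay -0.43 ± 0.14 from the pepper extract, each as the first minus the second. In order of their means, sotv ran from pyrethrin over the combination to the pepper extract, and botv from pyrethrin over the pepper extract to the combination. Read by channel the order was the combination, the pepper extract and pyrethrin for both genes, at -0.26, 0.07 and 0.25 for sotv and -0.23, 0.19 and 0.23 for botv. The neighbours that overlapped were the combination and the pepper extract for sotv, and pyrethrin and the pepper extract for botv. Extracts that did not overlap, with the combination higher than the pepper extract, were found for 1.54% of features (1.72% lower), with the combination higher than pyrethrin for 3.69% (2.87% lower), and with pyrethrin lower than the pepper extract for 2.41% (2.2% higher). The comparisons with the pepper extract share its 4 extracts, and 0% of features passed a limma adjusted p of 0.05 in any of the 3 differences. At an unadjusted p under 0.05 in limma, 4.63% did for the combination against the pepper extract (534 features), 12.1% for the combination against pyrethrin (1391) and 5.62% for pyrethrin against the pepper extract (648).

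The sides of ethanol on which the genes lay are given per treatment, although neither gene passed the test in any. They lay on the same side of ethanol in 4 of 4 combination extracts and in 4 of 4 pyrethrin extracts, and on opposite sides in all 4 pepper extracts. Before the dye correction they shared a side in 2 of 4 pyrethrin extracts, and read by channel they lay on opposite sides in 2 of 4 pepper extracts. Within an extract, sotv minus botv was -0.25, -0.38, 0.00242 and 0.04 in combination replicates 2, 4, 5 and 6. It was 0.05, 0.02, 0.03 and 0.20 in pyrethrin replicates 1, 2, 4 and 5. It was 0.65, 0.22, 0.43 and 0.63 in pepper extract replicates 1, 2, 3 and 4. The means were -0.15 ± 0.20 after the combination, 0.07 ± 0.08 after pyrethrin and 0.48 ± 0.20 after the pepper extract (SD, n = 4 each). Without the dye correction the mean after pyrethrin was 0.15. These are unequal changes of the genes within an array, without a test, since sotv high and botv low after the pepper extract is part of how they were chosen. Read by channel, the mean difference after the pepper extract was -0.12.

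**Figure D2:**
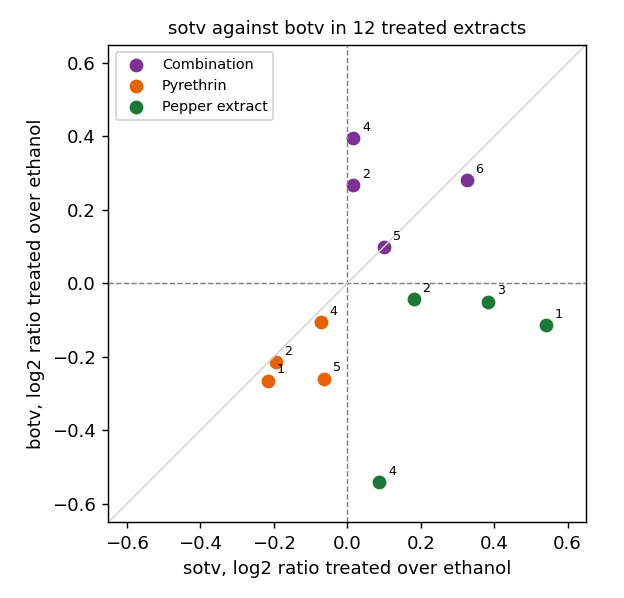
Log2 ratio of sotv (horizontal) against botv (vertical), treated over ethanol, in the 12 treated extracts, numbered by replicate; dashed lines mark 0 and the grey diagonal marks equal ratios. The combination extracts lie where both genes are above 0, the pyrethrin extracts where both are below 0, and the pepper extracts where sotv is above and botv below 0.

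Over the 12 extracts the ratios of sotv and botv had a Pearson correlation of 0.219 and a Spearman correlation of 0.357, given as descriptions without a p because the genes were chosen on the treatment means. Without pepper extract replicates 1 and 3, the 2 extracts farthest from the median of sotv, Pearson's r was 0.422 over 10 extracts. For deviations from each treatment's mean, r was 0.398 and rho 0.154, and the points share arrays and, for pyrethrin, control extracts. Among the 1930 other genes with a symbol and a value in all 12 extracts, botv ranked 501 by its correlation with sotv.

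The 5 genes most like sotv over the 12 extracts were CG4294 (r = 0.815), CG4239 (0.737), CG3556 (0.729), mio (0.713) and Pi4KIIIalpha (0.703), where the median gene had 0.0292. Pi4KIIIalpha encodes a phosphatidylinositol 4-kinase and stood at 0.01 after the combination, -0.05 after pyrethrin and 0.39 after the pepper extract. The 3 least like it were CG9727 (-0.816), Spn (-0.789), which encodes spinophilin, and the sperm tail gene dj (-0.777). Within treatments the same correlations with sotv ranged from 0.36 to 0.62 for the 5 and from -0.72 to -0.54 for the 3. Picking the ends of 1930 correlations over 12 extracts gives large values also among unrelated genes, so these are descriptions without a test.

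The 5 genes most like botv were CG33062 (r = 0.900), siz (0.877), for (0.856), capu (0.855) and CG11168 (0.836), against a median of 0.0213. The gene siz encodes an activator of Arf GTPases and stood at 0.29 after the combination, -0.19 after pyrethrin and -0.15 after the pepper extract. The gene for encodes a cGMP-dependent protein kinase known for foraging behaviour, at 0.19, -0.15 and -0.10 in the same order, and capu an actin nucleator of the oocyte, at 0.17, 0.03 and -0.05. The 3 least like botv were dnr1 (-0.824), eIF3m (-0.803) and Cad96Cb (-0.787). Within treatments the correlations with botv ranged from 0.49 to 0.91 for the 5, lowest for CG11168 and 0.58 for siz, and from -0.73 to -0.49 for the 3. As for sotv, they were picked as the ends of 1930 correlations and are descriptions.

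Individual arrays showed how the means arose. With the treated RNA in Cy5, botv stood at -0.05, 0.19, 0.04 and -0.05 in combination replicates 2, 4, 5 and 6, and with the treated RNA in Cy3 at 0.58, 0.60, 0.16 and 0.61. The combination arrays with treated RNA in Cy3 therefore carried most of the mean, at 0.49 ± 0.22 against 0.03 ± 0.11 with the treated RNA in Cy5 (SD, n = 4 each). The pyrethrin arrays, all with the treated RNA in Cy3, gave botv -0.25, -0.20, -0.09 and -0.24 before the dye correction, in replicates 1, 2, 4 and 5. In the pepper extract, botv was -0.11, 0.21, 0.10 and -0.19 in replicates 1, 2, 3 and 4 with the treated RNA in Cy5, and -0.12, -0.29, -0.20 and -0.89 with it in Cy3. The pepper extract arrays thus averaged 0.00253 ± 0.18 in one orientation and -0.38 ± 0.35 in the other.

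For sotv, the combination arrays with the treated RNA in Cy5 stood at -0.23, -0.00207, 0.07 and -0.41 in replicates 2, 4, 5 and 6, and those with it in Cy3 at 0.26, 0.03, 0.14 and 1.06. The orientations averaged -0.15 ± 0.22 and 0.37 ± 0.47 (SD, n = 4 each), on opposite sides of ethanol. The pyrethrin arrays stood at -0.12, -0.10, 0.02 and 0.03 before the dye correction, so 2 of the 4 were above ethanol as deposited, and the correction of -0.09 placed all 4 below it. In the pepper extract, sotv was 0.72, 0.54, 0.26 and -0.04 in replicates 1, 2, 3 and 4 with the treated RNA in Cy5 and 0.36, -0.18, 0.51 and 0.22 with it in Cy3, with means of 0.37 ± 0.33 and 0.23 ± 0.30. The pepper extract was the treatment in which both orientations placed sotv on the same side.

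The dye effect of botv, written as the Cy5 minus the Cy3 arrays divided by 2, was -0.23 ± 0.13 in the combination and 0.19 ± 0.15 in the pepper extract (SD, n = 4 pairs each). The Cy5 array was the lower in 4 of 4 combination pairs and the higher in 4 of 4 pepper extract pairs. That of sotv was -0.26 ± 0.34 in the combination and 0.07 ± 0.24 in the pepper extract. The mean over the 8 pairs, which corrected the pyrethrin arrays, was -0.02 for botv and -0.09 for sotv. For each gene it averages treatment values of opposite sign, so neither treatment's value equals it. Whether it is the dye effect of the pyrethrin arrays was not tested, and the corrected pyrethrin values rest on it. Over all features these dye effects of both treatments correlated at 0.430 and the means over the dyes at 0.0568, as a description across features of the same arrays. On the 12 arrays with the treated RNA in Cy3 alone, sotv was higher after the combination than after the pepper extract, by 0.15, opposite to the mean over both orientations.

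**Figure D3:**
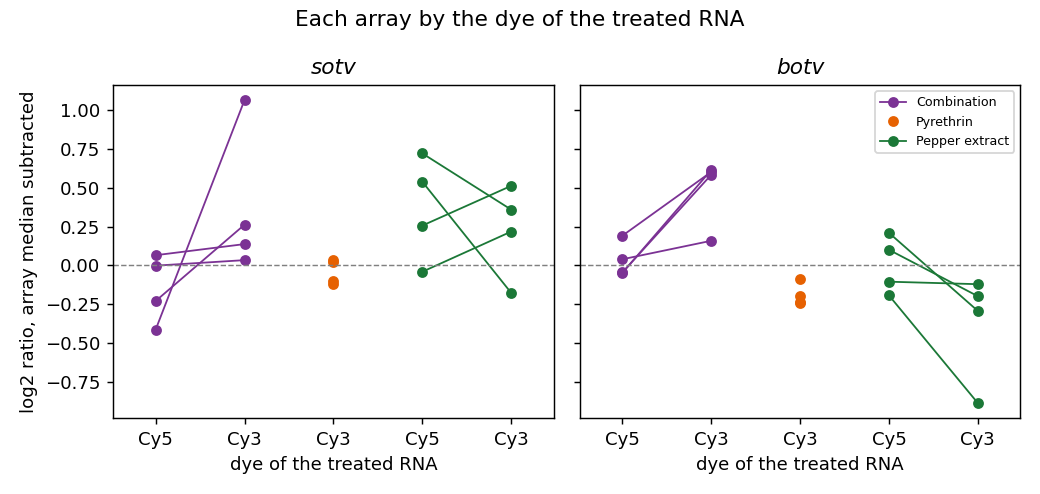
Log2 ratio of sotv (left) and botv (right) on each array, array median subtracted and before any dye correction, by the dye that labelled the treated RNA; lines join the 2 arrays of 1 extract. For botv the Cy3 arrays are higher than the Cy5 arrays in all 4 combination pairs and lower in all 4 pepper extract pairs.

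The duplicate spots show the reading error of each gene. The spots of sotv differed by 0.404 on average over 19 arrays that read both, and those of botv by 0.385 over 20, where the median of 2460 annotated neighbouring pairs was 0.260, so that 83.1% and 79.9% of pairs agreed more closely. Over the arrays the duplicates of sotv correlated at 0.0653 and those of botv at 0.239, against a median of 0.496. For sotv, spot 2222 read 1.29 and spot 2221 read 0.16 on the Cy5 array of pepper extract replicate 1, and spot 2221 read 1.21 and spot 2222 read -0.13 on that of replicate 2. In combination replicate 6 with the treated RNA in Cy3, spot 2221 read 1.06 and spot 2222 had no value, so that the array mean of sotv rests on 1 spot.

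For botv the widest gap was on the Cy3 array of pepper extract replicate 4, where spot 5378 read -1.76 and spot 5377 read -0.01. Spot 5378 alone gave botv -0.39 after the pepper extract, and spot 5377 alone gave 0.02. With spot 5378 left out of both arrays of replicate 4, an alternative chosen after seeing the data, the mean after the pepper extract was -0.03 and sotv minus botv was 0.33. After the combination each spot of botv alone gave 0.26, and 13 of its 16 spot readings there were above ethanol. After pyrethrin 7 of 8 spot readings of botv were below ethanol, and after the pepper extract 10 of 16. Of the sotv readings, 7 of 15 were above ethanol after the combination, 3 of 8 after pyrethrin and 12 of 16 after the pepper extract.

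**Figure D4:**
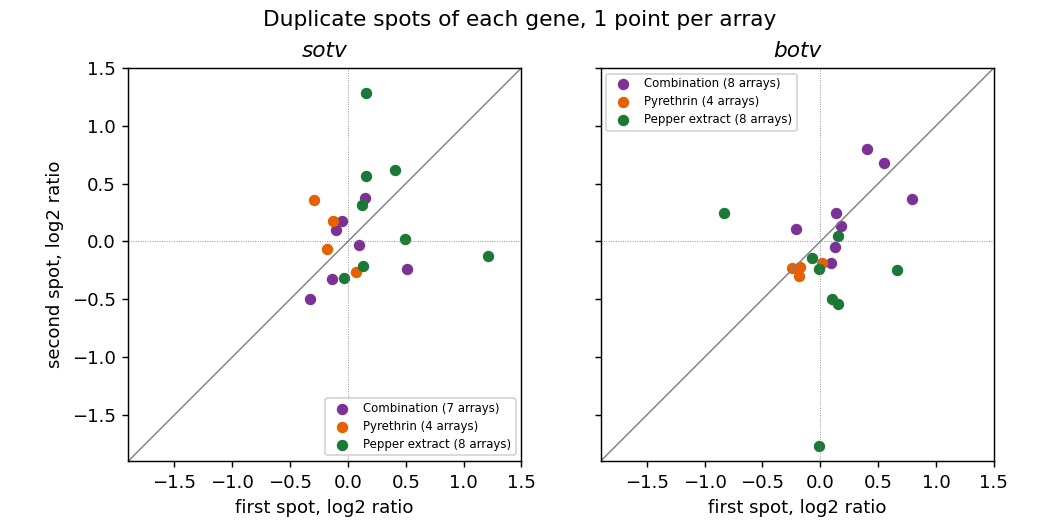
Log2 ratio of the second against the first spot of sotv (left) and botv (right), 1 point per array with both read, array median subtracted; the diagonal marks equal readings. Points of sotv scatter away from the diagonal, and 1 pepper extract array has botv at -1.76 on its second spot and -0.01 on its first.

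After pyrethrin, the sotv extracts set against control extract 3 averaged -0.21 and those set against control extract 4 averaged -0.07, while botv averaged -0.24 and -0.18, with 2 extracts behind each mean and no test. Control extract and treated flies cannot be told apart here. The titles of the Cy5 arrays of pepper extract replicates 3 and 4 follow another naming and do not name the treatment, which is taken from their source names. Whether these 2 arrays are rightly assigned cannot be told from the labels. After removal of the mean array, dye partners correlated at 0.203, 0.293, 0.110 and 0.034 in pepper extract replicates 1 to 4. In combination replicate 2, with ordinary titles, they correlated at 0.037. Without the Cy5 arrays of pepper extract replicates 3 and 4, the remaining Cy3 arrays being dye-corrected, botv after the pepper extract was -0.38, sotv was 0.32 and sotv minus botv 0.69.

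Of the 39 genes listed for heparan sulfate synthesis and for proteoglycan core proteins and their release, 17 were measured and tested. In limma over all features, 0 of 17 passed after any treatment. The list does not require that a core protein carries heparan sulfate. At an unadjusted p under 0.05, a description since sotv and botv are among them, there were 3 of 17 after the combination, where 8.7% of all features reached it, 2 of 17 after pyrethrin against 9.99% and 1 of 17 after the pepper extract against 3.27%. Those after the combination were botv and the core protein genes wdp and kon. The medians of the 17 were 0.09 after the combination, -0.05 after pyrethrin and -0.01 after the pepper extract, beside 0.01, -0.01 and 0.00425 over all features. Without sotv and botv the medians of the other 15 were 0.08, -0.04 and -0.01.

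Among the enzymes that modify the chain, Hs6st, a 6-O-sulfotransferase, stood at 0.08 ± 0.20 after the combination, 0.26 ± 0.09 after pyrethrin and -0.08 ± 0.18 after the pepper extract (SD, n = 4 each). After pyrethrin it was above ethanol in 4 of 4 extracts, opposite to sotv and botv, with a limma adjusted p of 0.441. Sulf1, which removes such sulfates outside the cell, stood at 0.08, -0.05 and -0.02 in the same order. The linker enzymes GlcAT-I (0.05, -0.14 and 0.05) and GlcAT-P (-0.06, 0.07 and -0.08) are glucuronyltransferases and lay near ethanol.

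Of the genes of sugar and sulfate donors, the Golgi transporters of the sulfate donor, sll and Papst2, stood at 0.13 and 0.09 after the combination, -0.09 and -0.10 after pyrethrin and -0.01 and -0.06 after the pepper extract. Of the enzymes of UDP-N-acetylglucosamine synthesis, mmy had 0.20 ± 0.40, -0.01 ± 0.59 and 0.23 ± 0.49 (SD, n = 4), and Gfat2 0.17, -0.04 and 0.18. The values of nst were -0.04, -0.07 and -0.07, and those of Gnpnat 0.05, 0.05 and 0.000502.

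Of the core proteins, the glypican gene dlp stood at 0.16 ± 0.10 after the combination, -0.27 ± 0.21 after pyrethrin and -0.02 ± 0.14 after the pepper extract (SD, n = 4 each). It was above ethanol in 4 of 4 combination extracts and below it in 4 of 4 pyrethrin extracts, with limma adjusted p-values of 0.653 and 0.39. Of features measured in all 12 extracts, 8.11% had the first and 10.3% the second, and the share with both was not counted. By their means, 13 of the 17 listed genes lay above ethanol after the combination and 12 below it after pyrethrin. Over all features, 53.7% lay above after the combination and 48.6% above after pyrethrin. The gene wdp, whose product is a transmembrane proteoglycan, stood at 0.32 ± 0.16, -0.16 ± 0.19 and -0.00036 ± 0.16 (SD, n = 4 each), and its limma adjusted p after the combination was 0.471. The gene kon stood at 0.26, -0.04 and 0.03, the perlecan gene trol at -0.05, 0.04 and 0.000584, and Cow, whose product is a secreted proteoglycan that binds Wingless, at -0.05, 0.08 and -0.01.

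**Figure D5:**
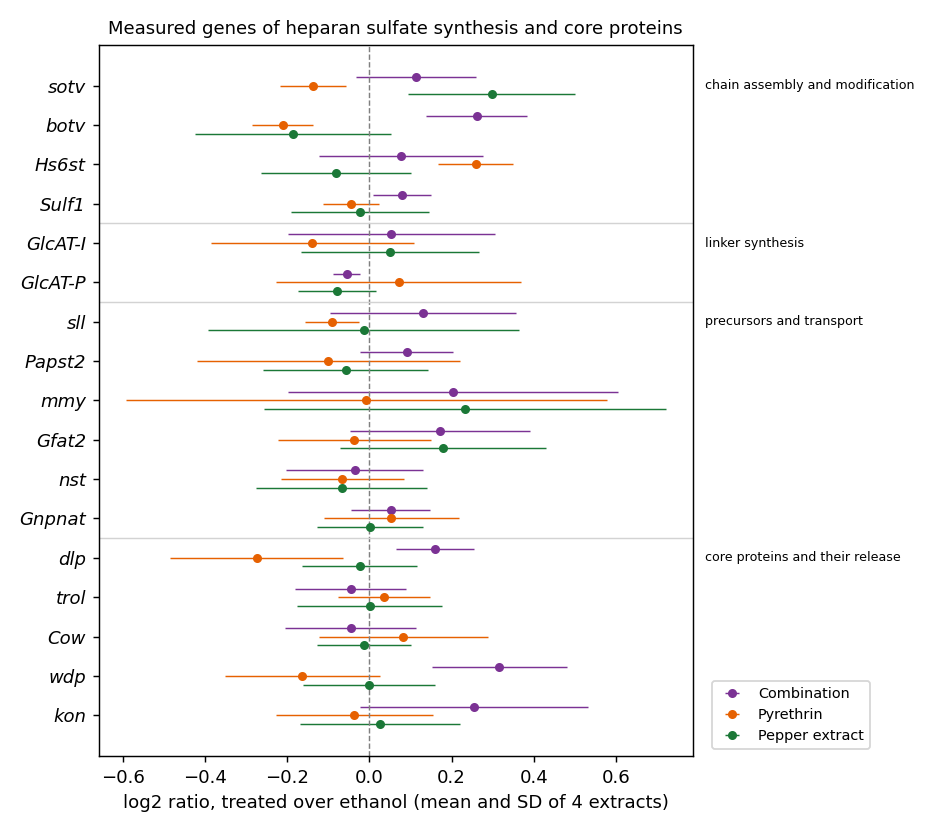
Mean log2 ratio, treated over ethanol, of the 17 measured genes of heparan sulfate synthesis and proteoglycan core proteins, by list; points are means and bars SDs of 4 extracts. Most means lie within 0.2 of 0. After the combination 13 of the 17 are above 0 and after pyrethrin 12 are below 0, with sotv, botv, dlp and wdp in both counts.

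Of the listed ligands and receptors that are known to use these chains, 4 were measured and 0 passed in limma after any treatment. The fibroblast growth factor gene bnl stood at 0.05 ± 0.11 after the combination, -0.28 ± 0.12 after pyrethrin and -0.19 ± 0.09 after the pepper extract, and the receptor gene sax at 0.05 ± 0.17, 0.07 ± 0.13 and 0.20 ± 0.08 (SD, n = 4 each). The ligand gene dpp stood at -0.05, 0.08 and -0.01, and its receptor gene tkv at -0.06, 0.02 and 0.02. Of 7 tested glycosyltransferases of other pathways 0 passed in limma, and the 3 largest in size were Pgant7 (0.22), Mgat2 (-0.12) and O-fut1 (0.07) after the combination, Pgant5 (0.13), tw (0.12) and Pgant7 (-0.10) after pyrethrin, and Pgant6 (0.11), tw (0.09) and Pgant5 (0.08) after the pepper extract.

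Cell type markers were few on the array. The yolk protein receptor gene yl of the ovary stood at -0.29 after the combination, 0.04 after pyrethrin and -0.15 after the pepper extract. The 4 testis and male accessory gland genes had medians of -0.12, 0.25 and 0.01, and ocn of the testis stood at 1.05 after pyrethrin with a limma adjusted p of 0.0476. That call depends on the processing. For pyrethrin, 0 features passed with 20 arrays and a dye term, with the replicate block, or without pyrethrin replicate 1 or 4. The medians were 0.02, 0.09 and 0.17 for the muscle genes Tm2 and up. For Pxn and NimC1, expressed in hemocytes, they were -0.02, 0.01 and -0.16. The nervous system gene nSyb stood at 0.04, -0.14 and -0.02. Their part in the values of sotv and botv was not tested.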

How the data were processed

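The deposited table holds 1 log2 ratio per spot and array; the log2 base was inferred from the largest value in size, 14.3, since natural logarithms of 16-bit ratios cannot exceed 11.1. Of the authors' steps, the sources used here give no scanner, normalization or numerator, and the deposited array medians lay within 0.0365 of 0. Per the labels, direct labelling used 80 µg of total RNA, and groups follow the source names of the treated channel.

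Each array's median was subtracted, spots of 1 single symbol were averaged (5666 of 16896 spots carried 1 symbol, 152 several and 11078 none), arrays of a dye exchange were averaged where both had a value, and pyrethrin arrays were corrected by the mean dye effect of the exchanged pairs (at least 4 pairs). Features with at least 3 of 4 extracts in every treatment were tested, 11526 in all, in 1 limma 3.58.1 model (R 4.3.3, statmod 1.5.0) of 12 extracts with a mean per treatment, weights by kind of extract and a random block for control extracts (correlation 0.0646). Tests were two-sided with Benjamini-Hochberg adjustment over all features at 0.05. The fit was checked on simulated data for the combination against ethanol alone, with planted changes larger than those of sotv and botv and no shared control extracts. That check does not cover the pyrethrin values or changes of the sizes given here. The number of arrays limits the precision, with median standard errors of 0.123 to 0.13 against ethanol. Nothing says that extracts came from separate cultures, so p-values measure the spread between these extracts.

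The members, the gene lists and the tests were chosen with earlier results of these data known. Named genes are sotv and botv, for each the 5 most and 3 least correlated genes over the 12 extracts, every tested member of the first 4 heparan sulfate lists, for each longer list up to 3 per treatment by size, the cell type markers, and a few genes of the closing section named after their values were seen. Alternatives covered the reading of the ratio, the dye correction, arrays as the unit, scaling, weights, blocks, filters, single spots and left-out extracts. Sequences are not shown.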

Additional observations from a re-analysis of the deposited data

Results flagged for a closer look

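Over 17 genes of heparan sulfate synthesis and proteoglycan core proteins, 51 groups of 4 extracts were screened for an extract that stands apart, of which chance gives about 1 in 20. In the pepper extract, botv in replicate 4 stood at -0.54, where its other replicates ranged from -0.11 to -0.04. The enzyme gene Gnpnat in pepper extract replicate 2 stood at -0.19, below its other replicates at 0.06 to 0.08, and the glypican gene dlp in the same extract stood at 0.19, above the others at -0.11 to -0.08.

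Some genes lay on opposite sides of ethanol in every extract of 2 treatments, and these differences were not tested beyond the descriptions given. They include comparisons from which sotv and botv were chosen, so the values are descriptions. How many of all features lie on opposite sides in this way was not counted. For sotv, the combination was above and pyrethrin below ethanol, a difference of 0.25, and pyrethrin was below and the pepper extract above it, a difference of -0.43. For botv, the combination was above ethanol and each single treatment below it, with differences of 0.45 from the pepper extract and 0.47 from pyrethrin. For dlp, the combination was above and pyrethrin below ethanol, a difference of 0.43.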

How the results depend on the processing

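Read by channel, the values against ethanol turned to -0.26 after the combination and 0.25 after pyrethrin for sotv, and to -0.23 after the combination, 0.23 after pyrethrin and 0.19 after the pepper extract for botv. The differences between treatments turned to -0.51 (combination minus pyrethrin) and 0.18 (pyrethrin minus pepper extract) for sotv and to -0.42 (combination minus pepper extract, limma adjusted p = 0.0487), -0.46 (combination minus pyrethrin) and 0.040 (pyrethrin minus pepper extract) for botv. Under that reading 235 features passed for the combination minus the pepper extract, the comparison from which botv was picked. The value of sotv minus botv after the pepper extract also turned, to -0.12. On the 12 Cy3 arrays, sotv was 0.15 for the combination minus the pepper extract and botv 0.18 for pyrethrin minus the pepper extract. That near-zero difference of botv was also 0.011 at equal spread per array, 0.077 without the 2 arrays whose titles do not name the treatment and 0.059 with the replicate block. Single spots turned sotv after pyrethrin (0.026, second spot), botv after the pepper extract (0.018, first spot) and sotv minus botv after pyrethrin (-0.049 with the first spot, 0.29 with the second). Without those 2 arrays sotv minus botv was 0.69 after the pepper extract and 0.18 after pyrethrin. The causes were not tested.

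Leaving out 1 extract at a time gave sotv 0.044 to 0.15 after the combination, -0.20 to -0.044 after pyrethrin and 0.22 to 0.37 after the pepper extract, and botv 0.22 to 0.32, -0.26 to -0.17 and -0.23 to -0.07. Between treatments sotv ranged from -0.25 to -0.10 (combination minus pepper extract), 0.09 to 0.32 (combination minus pyrethrin) and -0.54 to -0.34 (pyrethrin minus pepper extract), and botv from 0.33 to 0.50, 0.40 to 0.52 and -0.20 to 0.020. The difference sotv minus botv ranged from -0.21 to -0.07, 0.03 to 0.13 and 0.43 to 0.57 after the combination, pyrethrin and the pepper extract. Fits that leave out a pyrethrin extract had no control block, since 1 shared control extract gives no correlation.

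Counts of features called were 1918 (combination), 90 (pyrethrin) and 2264 (pepper extract) read by channel, 370, 1 and 247 on the Cy3 arrays, against 0, 7 and 0. For pyrethrin they were 132 without the dye correction, 0 with 20 arrays, 15 at equal spread, 12 without weights, 15 without the control block, 0 with the replicate block, 23 with control numbers shared across treatments (chosen after seeing the data, which turned neither gene's direction or call) and 4 with at least 2 extracts per treatment, and 0 to 16 leaving out 1 extract (0 to 4 for the combination). Between treatments they were 235, 43 and 9 read by channel for the combination minus the pepper extract, the combination minus pyrethrin and pyrethrin minus the pepper extract, 1 each for the last 2 without the dye correction, and 0 to 2 leaving out 1 extract for the combination minus pyrethrin. Deviations of same-numbered extracts of 2 treatments correlated at -0.326 to 0.149, and those of combination and pepper extracts of 1 control number at -0.397 to 0.223. These values cannot settle whether the numbers pair the extracts. Even the 2 arrays of 1 extract correlated as low as 0.034, in pepper extract replicate 4, where the title of 1 array does not name the treatment. The next lowest was 0.037, in combination replicate 2. The replicate block called neither gene.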

Other observations

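Of the 1931 genes with a symbol and a value in all 12 extracts, 13 had all 4 extracts of each treatment on 1 side of ethanol, sotv and botv included. The order of sotv was shared by CG4239, at 0.19 after the combination, -0.21 after pyrethrin and 0.15 after the pepper extract. The order of botv was shared by slim, at 0.13, -0.09 and -0.10. Both Cyp12d1-p, a cytochrome P450 gene, at 0.48, 0.39 and 0.39, and Spn27A, a serpin known to restrain melanization, at 0.27, 0.44 and 0.35, were above ethanol in all 12 extracts, and Imp, an RNA-binding protein gene, was below it in all 12, at -0.12, -0.14 and -0.20. These genes were picked after their values were seen.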
